A study of Mus musculus with 30 samples.

Results

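Of the 16025 gene symbols in a count table from mouse muscle cells, 36 genes of autophagy and the lysosome were taken by symbol, and all 36 were found and tested. They cover the cargo receptor Sqstm1 and the 5 ATG8-type genes Map1lc3a, Map1lc3b, Gabarap, Gabarapl1 and Gabarapl2, then 5 genes that start an autophagosome (Ulk1, Ulk2, Atg13, Becn1, Atg14). Another 10 extend and close its membrane (Atg3, Atg4b, Atg5, Atg7, Atg9a, Atg9b, Atg12, Atg16l1, Wipi1, Wipi2). The last 15 are 3 transcription factors (Tfeb, Tfe3, Mitf), 5 genes of the lysosomal membrane and its proton pump (Lamp1, Lamp2, Mcoln1, Atp6v0d1, Atp6v1h) and 7 acid hydrolases (Ctsa, Ctsb, Ctsd, Ctsl, Ctsz, Hexa, Neu1).

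RNA came from C2C12 myotubes, the fused muscle fibres that this mouse myoblast line forms on differentiation, in 10 groups of 3 libraries that the design text calls biological replicates. One line served all groups, none carries a genetic change per the labels, and where no source says that the cultures were grown separately the p-values measure only the spread between these libraries. Preparations from Korean Red Ginseng were the saponin fraction (SFr), the non-saponin fraction (NSFr) and the water extract (RGW), each at 100 µg/mL, and the ginsenoside Rb2 at 20 µM, all for 12 h. The groups SFr_Dgal, NSFr_Dgal, RGW_Dgal and Rb2_Dgal had the same 12 h of pretreatment and then D-galactose at 20 mg/mL for 24 h, a sugar load used as a laboratory model of ageing. Dgal had the sugar alone, and control had vehicle. The labels do not give how long control had vehicle. If culture times differed between groups with and without the sugar, that cannot be told apart from the sugar.

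Autophagy wraps proteins and organelles in a double membrane and delivers them to the lysosome, where acid hydrolases break them down. Small ubiquitin-like proteins of the ATG8 family are bound to that membrane and hold cargo receptors, of which Sqstm1 (p62) is the best known. Tfeb, Tfe3 and Mitf are related factors that switch on lysosomal and autophagy genes, and in muscle the pathway clears damaged proteins and organelles but also removes protein during wasting. A transcript level says nothing of how much cargo is being degraded, which was not measured.

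Libraries held 22209306 to 30218420 counts, so a count of 3 stood for 0.0993 to 0.135 CPM (counts scaled to each library's size, with TMM factors), and the lowest value of any member in any library was 339 expected counts (Atg9b). Muscle fibre markers were high, with 6216 to 7781 CPM of Acta1 in every library. Myoblast and dividing-cell genes were present too, with 26.4 to 42.0 CPM of Pax7 and 7.23 to 58.4 CPM of Mki67. Of 5 macrophage markers, Ptprc, Aif1, Lyz2 and Csf1r stayed at or below 0.0407, 0.134, 0.602 and 0.849 CPM, while Cd14 had 3.75 to 9.12 CPM. The highest of 5 fat cell markers had 0.239 CPM, and of 5 bone cell markers Dmp1 had 2.10 to 9.37 CPM and the others at most 0.784 CPM. A gene is called higher or lower here at an adjusted p under 0.05 (edgeR's quasi-likelihood test over 12184 genes, Benjamini-Hochberg). Errors beside log2 fold changes are standard errors, and those beside CPM are SD over 3 libraries.

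In control myotubes the hydrolases took 49.2% of the members' summed CPM, the lysosomal membrane and pump genes 17.2% and the receptor with the ATG8 genes 16.7%. Per kilobase of exon (all annotated exons of a gene together, GENCODE vM21), Ctsd, the aspartic protease cathepsin D, stood highest at 713 ± 19.7 CPM per kb. Lamp1, the major glycoprotein of the lysosomal membrane, followed at 319.6 ± 21.2 CPM per kb. Map1lc3a (172 ± 24.7), Sqstm1 (162 ± 6.48) and Gabarap (158 ± 9.71 CPM per kb) differed by less than the SD of Map1lc3a. Mitf (3.33 ± 0.260) and Atg7 (3.18 ± 0.0850 CPM per kb) were lowest and lay within their spread of each other.

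**Figure D1:**
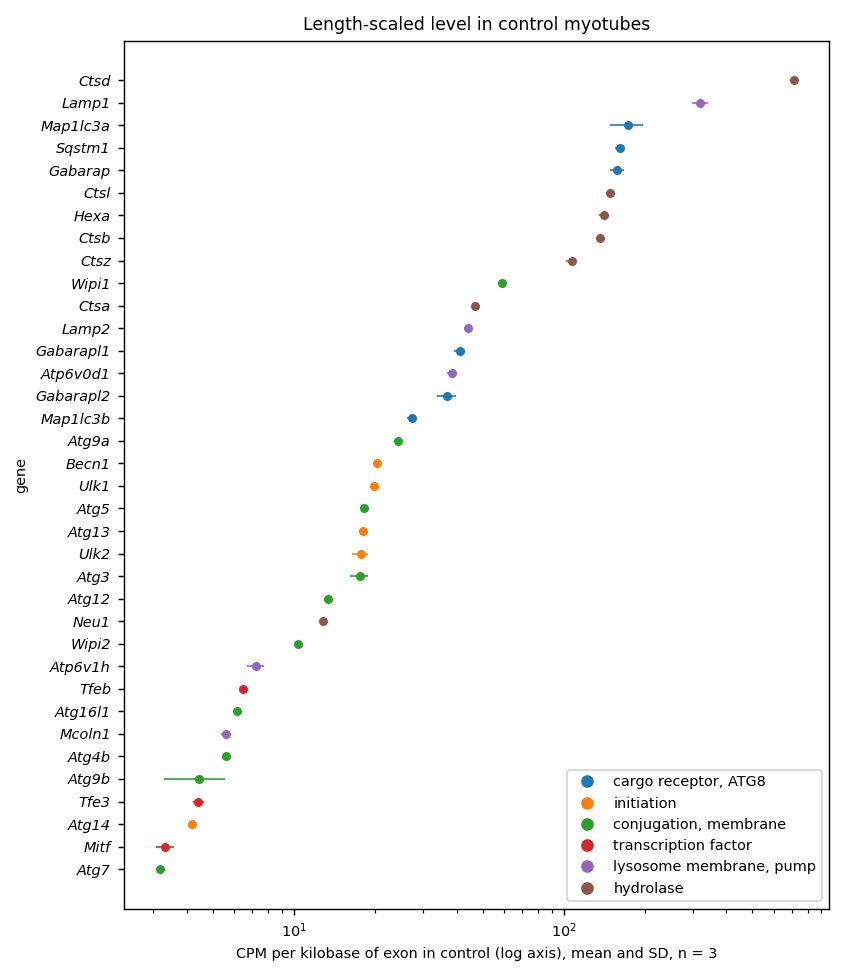
Mean level of each of the 36 genes over the 3 control libraries, in CPM per kb of exon on a log axis, ordered by level and coloured by role, with bars for the SD. Ctsd averages 713 CPM per kb and Atg7 3.18 CPM per kb.

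Each role group had members that were higher after the saponin fraction. To ask what it does to myotubes without the sugar, SFr was compared with control, and 22 of 36 members were higher and 3 lower, where 21.3% of all genes tested were higher and 21.8% lower. The members' median log2 fold change was 0.17, against 0.00 over all genes tested. By role, 6 of 7 hydrolases were higher, 4 of 6 receptor and ATG8 genes, 3 of 5 initiation genes, 3 of 5 lysosomal membrane and pump genes, 4 of 10 membrane extension genes and 2 of 3 transcription factors. The 3 lower members were Tfeb, Atg3 and Atg5. Summed over the 36 genes, the level was 10195.7 to 10590.1 CPM in SFr and 8390 to 8599 CPM in control.

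Other cell features moved with this comparison. All 5 dividing-cell markers fell, with a summed level of 64.7 to 74.8 CPM in SFr and 162 to 170.4 CPM in control, and 8 of 10 fibre markers fell while 1 rose, with 19812 to 20839 CPM in SFr and 25230 to 27110.3 CPM in control. Of 5 myoblast markers 2 rose and 1 fell, with 380.2 to 389 CPM in SFr and 334 to 345 CPM in control. The 5 macrophage markers in the table summed to 6.34 to 7.39 CPM in SFr and 4.51 to 5.57 CPM in control, most of it Cd14, and Cd14 rose while the other 2 that were tested were not called. Mitochondrial genes took 1.12% to 1.36% of the counts in SFr and 0.727% to 1.14% in control. Fewer cells of a type and less RNA per cell cannot be told apart in these bulk samples, and the part of these shifts in the results was not tested.

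**Figure D2:**
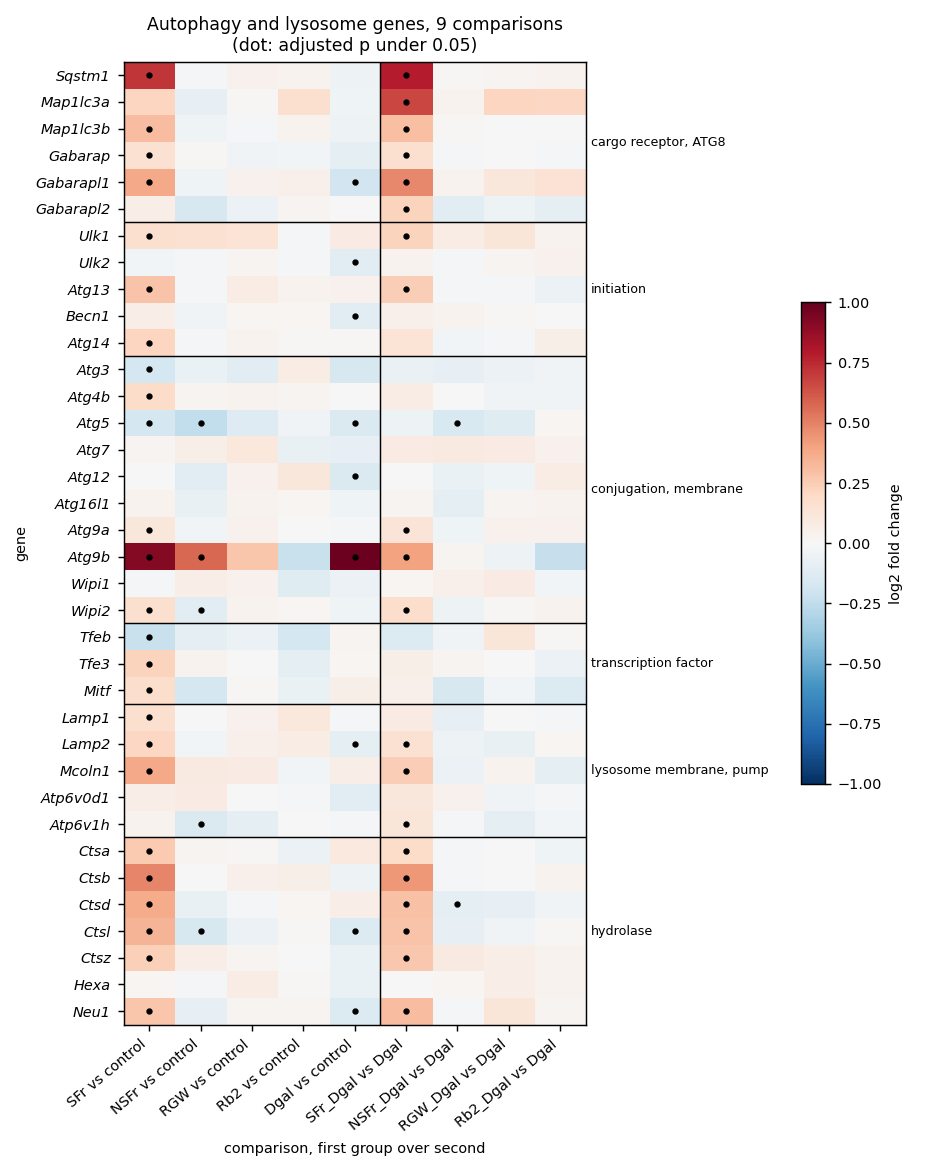
Log2 fold change of the 36 genes (rows, by role) in 9 comparisons (columns: SFr, NSFr, RGW, Rb2 and Dgal against control, then SFr_Dgal, NSFr_Dgal, RGW_Dgal and Rb2_Dgal against Dgal); dots mark adjusted p under 0.05. Calls crowd into the SFr columns, with 25 in SFr against control and 20 in SFr_Dgal against Dgal, while RGW and Rb2 columns hold none.

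Among receptors, Sqstm1, which ties ubiquitin-tagged cargo to the growing membrane, had the smallest adjusted p. It had 919.6, 876 and 874 CPM in SFr, against 562, 546 and 519 CPM in control. Every SFr library lay far above every control library, a log2 fold change of 0.71 ± 0.035 (1.64-fold, adjusted p = 6.32e-18). With the sugar the gap was of the same order: 854, 891 and 953 CPM in SFr_Dgal, against 524, 531 and 514 CPM in Dgal, a log2 fold change of 0.78 ± 0.035 (adjusted p = 8.85e-19). The gene lies on the minus strand at 50199366 to 50210827 of chromosome 11 on GRCm38, and its annotation overlaps Mrnip on the other strand, so if reads were counted without strand some could belong to Mrnip.

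The ATG8 genes did not move as a block. Map1lc3b, the LC3B gene whose lipid-bound protein is the usual autophagosome marker, had 259, 257 and 247 CPM in SFr, against 215, 202 and 199 CPM in control (0.31 ± 0.037, adjusted p = 2.06e-08). Gabarapl1, a relative of LC3, had 110.4, 108 and 105 CPM in SFr, against 86.1, 83.1 and 78.9 CPM in control (0.38 ± 0.040, adjusted p = 1.28e-09). Both were separated without overlap. Gabarap was higher by a small step (0.15 ± 0.048, adjusted p = 0.0104), a call lost when control replicate 2 (adjusted p = 0.0932) or control replicate 3 was left out. Gabarapl2 (0.07 ± 0.065) and Map1lc3a (0.22 ± 0.094, adjusted p = 0.0656) were not called.

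Of the initiation genes, Atg13, the partner that holds the ULK kinase complex together, rose in every library, with 94.2, 96.7 and 95.9 CPM in SFr and 78.8, 80.1 and 76.8 CPM in control (0.28 ± 0.035, adjusted p = 2.89e-08). Atg14, which steers the Beclin lipid kinase complex to autophagy, was higher at 0.22 ± 0.067 (adjusted p = 0.00857), but not without SFr replicate 2 (adjusted p = 0.0764). The kinase Ulk1 was higher at 0.16 ± 0.052 (adjusted p = 0.0142), but not without control replicate 2 (adjusted p = 0.0639) or SFr replicate 3. Its sister kinase Ulk2 (-0.03 ± 0.038) and Becn1 (0.06 ± 0.034) were not called.

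Membrane genes went both ways. Atg9b, which encodes one of the pair of ATG9 lipid scramblases, had 33.4, 32.1 and 32.9 CPM in SFr, against 14.5, 15.4 and 22.6 CPM in control. All SFr libraries were above the controls, of which replicate 3 was the highest, and the log2 fold change was 0.92 ± 0.17 (adjusted p = 0.000102). Its common relative Atg9a (0.11 ± 0.038), the LC3-processing protease Atg4b (0.18 ± 0.043) and the phosphoinositide-binding Wipi2 (0.16 ± 0.035) were higher by less. The Atg9a call was lost without SFr replicate 1 (adjusted p = 0.0757) or control replicate 2. Atg5, part of the enzyme that attaches ATG8 proteins to lipid, was lower, with 39.4, 36.8 and 37.1 CPM in SFr and 44.1, 42.2 and 41.5 CPM in control (-0.17 ± 0.046, adjusted p = 0.00251). Atg3, which carries ATG8 proteins to that enzyme, was lower at -0.18 ± 0.065 (adjusted p = 0.0276), but not without control replicate 1 (adjusted p = 0.256) or SFr replicate 2. Atg7, Atg12, Atg16l1 and Wipi1 had log2 fold changes between -0.02 and 0.03 and were not called.

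The 3 related transcription factors split. Tfeb was lower, with 32.0, 32.2 and 30.2 CPM in SFr and 37.9, 35.6 and 36.7 CPM in control (-0.22 ± 0.057, adjusted p = 0.00166). Tfe3 was higher, with 46.1, 47.3 and 50.1 CPM in SFr and 39.1, 40.8 and 42.9 CPM in control (0.23 ± 0.043, adjusted p = 5.24e-05). Neither pair of groups overlapped. Mitf was also higher (0.17 ± 0.063, adjusted p = 0.0242), a call that was lost without control replicate 1 (adjusted p = 0.173), without SFr replicate 2 and with only the groups compared in the fit.

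On the lysosomal membrane the largest rise was in Mcoln1, the calcium-release channel of the lysosome, with 55.4, 54.9 and 54.4 CPM in SFr and 42.5, 40.5 and 43.9 CPM in control (0.38 ± 0.040, adjusted p = 1.06e-09). Lamp2, the receptor of chaperone-mediated autophagy in one of its splice forms, was higher at 0.21 ± 0.030 (adjusted p = 9.21e-07). Lamp1 had 977, 947 and 934 CPM in SFr, against 789.5, 886 and 889.7 CPM in control (0.16 ± 0.036, adjusted p = 0.000532), with the first control library below the others. The proton pump genes Atp6v0d1 and Atp6v1h (0.06 ± 0.049 and 0.03 ± 0.046) were not called.

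Hydrolases rose in 6 of 7 cases. Ctsb, a cysteine protease, had 1192, 1133 and 1145 CPM in SFr, against 835, 823 and 821 CPM in control (0.49 ± 0.031, adjusted p = 4.68e-15). Ctsd had 2208, 2178 and 2128 CPM in SFr, against 1726, 1634 and 1672 CPM in control (0.37 ± 0.031, adjusted p = 3.25e-12). Neither showed overlap. The cysteine protease Ctsl (0.34 ± 0.047), the sialidase Neu1 (0.28 ± 0.048), Ctsa, the carboxypeptidase that protects Neu1 (0.26 ± 0.038), and the carboxypeptidase Ctsz (0.24 ± 0.039) followed, with adjusted p between 2.26e-07 and 1.28e-05. Hexa, the alpha chain of beta-hexosaminidase, was the exception at 0.02 ± 0.039. The annotation of Ctsb overlaps Fdft1 on the other strand. Ctsb counts were fractional in all 30 libraries, so its reads may be shared with that gene.

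Proteins of the Tfeb family bind the palindrome CACGTG at many lysosomal genes, and the promoters were searched for these letters. RefSeq promoters on GRCm38.p6 matched 30 of the 36 genes, and Ctsb, Atp6v1h, Map1lc3a, Becn1, Atg16l1 and Atg12 had no entry. In the 250 bases before the start, CACGTG, which reads alike on both strands, stood in 8 of the 30 genes: Lamp1, Mcoln1, Ctsd, Ctsa, Ctsl, Atg3, Atg5 and Atg7. Counted over promoter entries, that is 22.2% of the 36 entries of the 30 genes, against 6.02% of all 32851 entries. The longer TCACGTGA, which contains it, stood in 4 genes (Ctsa, Ctsd, Mcoln1 and Atg3), 11.1% of the entries, against 0.785% of all. CACGTG was in 5 of the 21 matched genes that were higher in SFr and in 3 of the 9 others, among them Atg3 and Atg5, which were lower. The stretches below are shown because the matches stand in them, capitals mark CACGTG, and those of Ctsd and Ctsa overlap an annotated exon. Those of Mcoln1 and Ctsd hold 1 of the 2 matches of each gene, and those of Mcoln1 and Atg3 hold no complete TCACGTGA.
Lamp1, chr8:13159051-13159160, plus strand: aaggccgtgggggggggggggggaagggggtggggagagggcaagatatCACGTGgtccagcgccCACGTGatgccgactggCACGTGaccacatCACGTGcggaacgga
Mcoln1, chr8:3500347-3500456, plus strand: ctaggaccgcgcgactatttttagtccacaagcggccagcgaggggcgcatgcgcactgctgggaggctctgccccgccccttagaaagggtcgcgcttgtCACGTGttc
Ctsd, chr7:142387908-142387937, minus strand: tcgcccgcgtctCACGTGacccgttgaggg
Ctsa, chr2:164833743-164833772, plus strand: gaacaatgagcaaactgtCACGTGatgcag
Atg3, chr16:45158734-45158763, plus strand: tCACGTGtcctgggagagtcgagtCACGTG
Lamp1 holds 4 matches within 110 bases. Among these 5 genes the log2 fold change in SFr against control was positive for 4 and negative for Atg3. Of the genes with CACGTG that are not shown, it was positive for Ctsl and Atg7 and negative for Atg5. Over all 36 members it was positive for 31 and negative for 5. A match describes the letters and no binding was measured.

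To ask whether the fraction acts alike when the sugar follows, SFr_Dgal was compared with Dgal: 20 of 36 members were higher and 0 lower, where 20.3% of all genes tested were higher and 21.0% lower. For the lower direction DESeq2 also called 0, and 23 members had an unadjusted p under 0.05 in either direction. The share of all genes under that unadjusted threshold was not counted, here or below. The median was 0.14, against -0.01 over all genes tested. All 6 receptor and ATG8 genes were higher, 6 of 7 hydrolases, 3 of 5 lysosomal membrane and pump genes, 3 of 10 membrane extension genes, 2 of 5 initiation genes and 0 of 3 transcription factors. The summed level was 9809 to 10521.9 CPM in SFr_Dgal and 8221 to 8365 CPM in Dgal. All 5 dividing-cell markers fell here too (39.4 to 42.9 CPM in SFr_Dgal, 72.0 to 79.7 CPM in Dgal), as did 5 of 10 fibre markers while 1 rose (22083 to 23676 CPM in SFr_Dgal, 24399 to 24934 CPM in Dgal), and their part was not tested. The same holds for Cd14, which rose while the other 2 macrophage markers tested were not called. It holds for 1 of the 2 bone markers tested, which fell while the other was not called. It holds for the 5 myoblast markers, of which 2 rose and 2 fell. It also holds for mitochondrial genes, at 0.972% to 1.42% of the counts in SFr_Dgal and 1.32% to 1.68% in Dgal.

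Map1lc3a, the second LC3 gene, stood out here. It had 284, 285 and 373 CPM in SFr_Dgal, against 193, 196 and 204 CPM in Dgal, a log2 fold change of 0.67 ± 0.094 (adjusted p = 4.56e-06). The third SFr_Dgal library was well above the other two, and the groups did not overlap. Gabarapl1 had 96.0, 102 and 106 CPM in SFr_Dgal, against 75.7, 70.9 and 71.5 CPM in Dgal (0.48 ± 0.041, adjusted p = 9.48e-12). Map1lc3b had 236, 235 and 262 CPM in SFr_Dgal, against 204, 198 and 193 CPM in Dgal (0.30 ± 0.038, adjusted p = 3.70e-08). Gabarapl2 was higher at 0.22 ± 0.065 (adjusted p = 0.00704), but its groups overlapped and the call was lost without SFr_Dgal replicate 3 (adjusted p = 0.0697) or Dgal replicate 3. Gabarap was higher at 0.16 ± 0.048 (adjusted p = 0.00737), but not without Dgal replicate 1 (adjusted p = 0.0928) or SFr_Dgal replicate 3.

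Ctsb had 1065, 1026 and 1126 CPM in SFr_Dgal, against 811, 784 and 791 CPM in Dgal (0.43 ± 0.031, adjusted p = 1.28e-13). Ctsd had 2124, 2110.3 and 2251 CPM in SFr_Dgal, against 1795, 1747 and 1739 CPM in Dgal (0.30 ± 0.031, adjusted p = 8.74e-10). Both proteases were again separated without overlap. Neu1 (0.31 ± 0.049), Ctsl (0.28 ± 0.047), Ctsz (0.27 ± 0.039), Mcoln1 and Atg13 (0.24 ± 0.040 and 0.24 ± 0.035), Ctsa (0.19 ± 0.038), Wipi2 (0.18 ± 0.035) and Lamp2 (0.15 ± 0.030) were higher as well. Ulk1 was higher with overlapping groups (0.22 ± 0.052), and Atg9a (0.13 ± 0.039) was not called without Dgal replicate 1 (adjusted p = 0.0805). Tfeb was not called, with 32.6, 33.3 and 36.3 CPM in SFr_Dgal and 35.7, 38.7 and 38.1 CPM in Dgal (-0.14 ± 0.057, adjusted p = 0.0519), nor was Lamp1 (0.08 ± 0.036, adjusted p = 0.0621). Atg9b (0.40 ± 0.15, adjusted p = 0.0351) overlapped between groups and lost its call in 5 of 11 alternative fits, up to adjusted p = 0.198, among them those without SFr_Dgal replicate 1 or 2 or Dgal replicate 1 or 3. Atp6v1h (0.12 ± 0.047, adjusted p = 0.0385) lost its call in 5 of 11, up to adjusted p = 0.151, among them those without replicate 2 or 3 of SFr_Dgal or of Dgal.

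**Figure D3:**
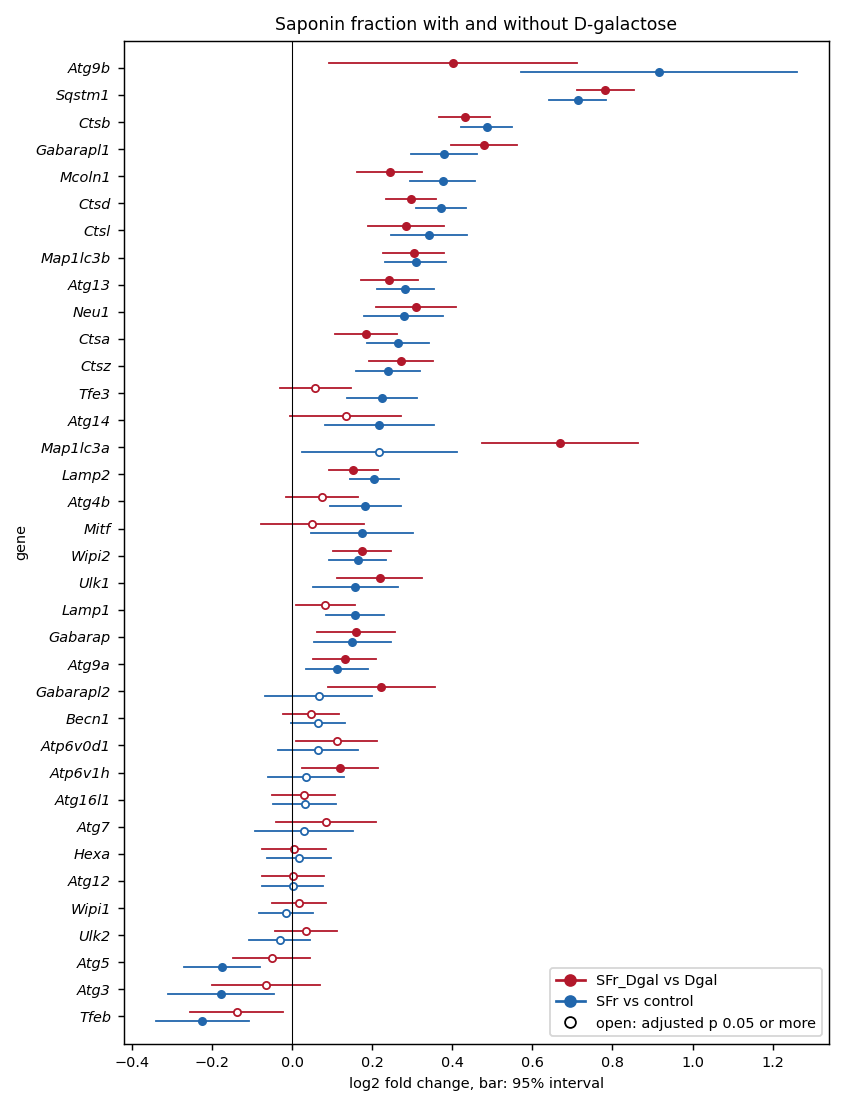
Log2 fold change with its 95% interval for each of the 36 genes, in SFr_Dgal against Dgal and in SFr against control; open symbols were not called. Sqstm1 is near 0.7 to 0.8 in both, and the Map1lc3a interval reaches 0.86 in SFr_Dgal against Dgal.

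Of the members, 17 were higher in both SFr comparisons, 77.3% of the 22 in SFr against control and 85.0% of the 20 in SFr_Dgal against Dgal. Over all genes tested, 14.6% were higher in both, 68.8% of those higher in SFr against control and 72.1% of those higher in SFr_Dgal against Dgal. These comparisons share no library. For 11 members all 6 libraries with SFr were above all 24 others, as for 7.04% of all genes tested: Sqstm1, Map1lc3b, Gabarapl1, Atg13, Atg9a, Wipi2, Mcoln1, Ctsa, Ctsb, Ctsd and Ctsz. Sqstm1 lay at 854 to 953 CPM in the 6 libraries with SFr and at 514 to 574 CPM in the 24 others. Ctsb lay at 1026 to 1192 CPM in those 6 and at 779.9 to 874 CPM in the 24 others. No member had all 6 below all 24, and the other 25 overlapped.

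**Figure D4:**
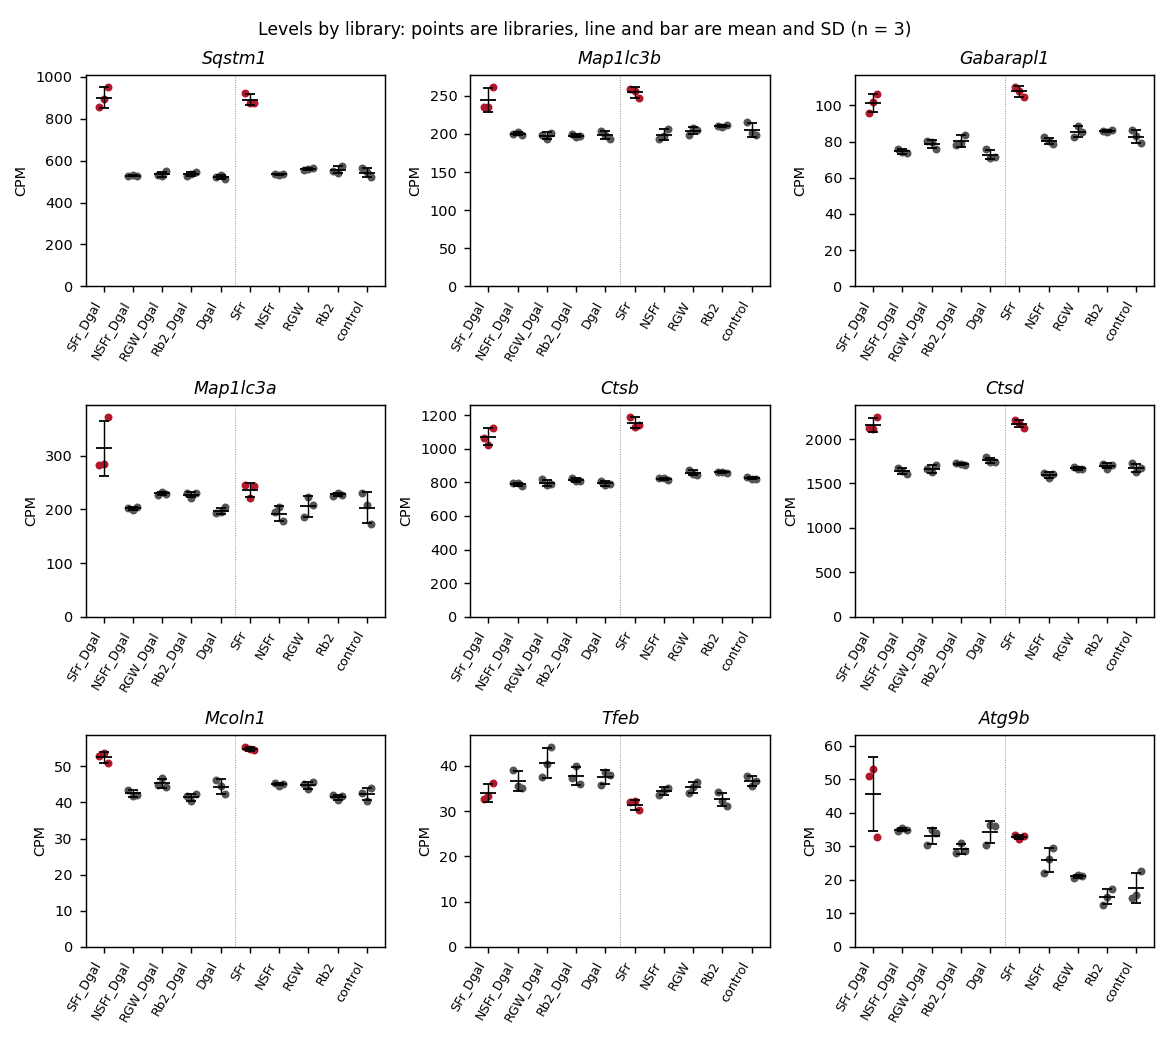
CPM per library (points) with mean and SD for 9 genes in the 10 groups, those with D-galactose left of the dotted line and groups with SFr in red. The SFr and SFr_Dgal points of Sqstm1, Ctsb, Ctsd, Gabarapl1, Map1lc3b and Mcoln1 lie above every other group, and Atg9b is higher in all groups with D-galactose than in control.

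The saponin and non-saponin fractions were given at the same 100 µg/mL for the same 12 h, which allows a direct comparison. In SFr against NSFr, 26 of 36 members were higher and 1 lower, where 20.8% of all genes tested were higher and 19.6% lower, with a median of 0.18. All 5 dividing-cell markers fell, with 64.7 to 74.8 CPM in SFr and 161 to 189 CPM in NSFr, and 9 of 10 fibre markers fell while 1 rose, with 19812 to 20839 CPM in SFr and 24520.3 to 24889.8 CPM in NSFr; their part was not tested. Sqstm1 had the largest difference, with the SFr values above and 536, 530.2 and 536 CPM in NSFr (0.74 ± 0.035, adjusted p = 2.75e-18). Ctsl (0.50 ± 0.047), Ctsb (0.49 ± 0.031), Ctsd (0.44 ± 0.031), Gabarapl1 (0.42 ± 0.040), Neu1 (0.36 ± 0.048) and Map1lc3b (0.35 ± 0.037) followed. Mitf was higher in SFr, with 22.3, 24.5 and 22.9 CPM, against 18.1, 18.6 and 18.0 CPM in NSFr (0.35 ± 0.064, adjusted p = 3.33e-05). Lamp1 was higher by 0.15 ± 0.036 (adjusted p = 0.000878). Small differences in Gabarap, Map1lc3a, Becn1, Atg12, Atg14 and Atg16l1 lost their calls when SFr replicate 1 or 2 or 1 NSFr library was left out, up to adjusted p = 0.161. The lower member was Wipi1, a phosphoinositide-binding relative of Wipi2 (-0.09 ± 0.033, adjusted p = 0.0387, lost in 6 of 11 alternative fits, up to 0.197 and with any library but SFr replicate 1 left out), and Tfeb was not called (-0.13 ± 0.057, adjusted p = 0.0649).

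With the sugar, in SFr_Dgal against NSFr_Dgal, 23 of 36 members were higher and 0 lower, where 20.7% of all genes tested were higher and 20.3% lower, with a median of 0.17. All 5 dividing-cell markers fell, with 39.4 to 42.9 CPM in SFr_Dgal and 98.7 to 115 CPM in NSFr_Dgal, and 6 of 10 fibre markers fell while 1 rose, with 22083 to 23676 CPM in SFr_Dgal and 24441 to 25297 CPM in NSFr_Dgal; their part was not tested. DESeq2 also called 0 lower, and 25 members had an unadjusted p under 0.05. Sqstm1 differed by 0.77 ± 0.035 (adjusted p = 9.49e-19), with 528, 529 and 524 CPM in NSFr_Dgal. Map1lc3a (0.64 ± 0.093), Ctsb (0.44 ± 0.031), Gabarapl1 (0.44 ± 0.041), Ctsd (0.40 ± 0.031), Gabarapl2 (0.33 ± 0.065) and Map1lc3b (0.29 ± 0.037) were also higher in SFr_Dgal. Lamp1 differed by 0.17 ± 0.036 (adjusted p = 0.000244), and Tfeb was not called (-0.10 ± 0.056, adjusted p = 0.158). The calls of Atg9b (up to adjusted p = 0.207), Ulk1 (up to 0.269), Atg16l1, Atp6v1h, Gabarap and Mitf were lost in 1 or more of the fits that left out a library. In all 4 SFr comparisons 15 members were higher, as were 11.5% of all genes tested; these comparisons share their SFr and SFr_Dgal libraries in pairs.

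D-galactose without a preparation was also compared with vehicle. In Dgal against control 1 of 36 members was higher and 8 lower, where 11.9% of all genes tested were higher and 13.1% lower, and the median was -0.05. Gabarapl1 was lower, with 75.7, 70.9 and 71.5 CPM in Dgal and 86.1, 83.1 and 78.9 CPM in control (-0.19 ± 0.042, adjusted p = 0.00104). The other lower members were Atg12, which is joined to Atg5 in the lipid-attaching enzyme (-0.14 ± 0.038), Atg5 (-0.14 ± 0.047), Neu1 (-0.14 ± 0.050), Ctsl (-0.14 ± 0.047), Becn1 (-0.12 ± 0.034), Ulk2 (-0.11 ± 0.038) and Lamp2 (-0.09 ± 0.030), with adjusted p from 0.00527 to 0.0405. Leaving out 1 library left 2 to 7 lower members. Atg5 (up to adjusted p = 0.151) and Becn1 (up to 0.128) lost their calls without control replicate 1 or Dgal replicate 2 or 3, and Ctsl (up to 0.145) without those or control replicate 3. Lamp2 (up to 0.156) and Neu1 (up to 0.299) lost theirs without any control library or Dgal replicate 2 or 3, and Ulk2 (up to 0.254) without any Dgal library or control replicate 2 or 3. Atg12 kept its call in all fits but that of only the groups compared, where adjusted p was 0.0507, and Gabarapl1 kept its call in all 11. Sqstm1 (-0.05 ± 0.035, adjusted p = 0.282), Map1lc3b (-0.05 ± 0.038), Tfeb (0.03 ± 0.057), Lamp1 (-0.02 ± 0.036) and Ctsd (0.07 ± 0.031, adjusted p = 0.0933) were not called. All 5 dividing-cell markers fell in this comparison, with a sum of 72.0 to 79.7 CPM in Dgal and 162 to 170.4 CPM in control. Of 10 fibre markers 1 rose and 1 fell, with 24399 to 24934 CPM in Dgal and 25230 to 27110 CPM in control. Of 5 myoblast markers 1 rose and 1 fell. Of 2 bone markers tested Dmp1 fell (-1.04 ± 0.15), and the other was not called (0.48). Of 3 macrophage markers tested Cd14 rose (0.36 ± 0.12), and the other 2 were not called, with the lowest at -0.77. Mitochondrial genes took 1.32% to 1.68% of the counts in Dgal and 0.727% to 1.14% in control. The part of these shifts was not tested.

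The higher member was Atg9b, with 30.3, 36.3 and 36.1 CPM in Dgal and 14.5, 15.4 and 22.6 CPM in control (0.98 ± 0.17, 1.97-fold, adjusted p = 0.000178). Its call held in all 11 alternative fits, between 0.86 and 1.20. Across the series its mean was 45.5 ± 11.1 CPM in SFr_Dgal, 35.0 ± 0.524 in NSFr_Dgal, 33.0 ± 2.40 in RGW_Dgal, 29.2 ± 1.57 in Rb2_Dgal and 34.2 ± 3.39 in Dgal. Without the sugar it was 32.8 ± 0.629 CPM in SFr, 25.9 ± 3.66 in NSFr, 21.1 ± 0.447 in RGW, 14.9 ± 2.25 in Rb2 and 17.5 ± 4.44 in control. The highest of the groups without sugar, SFr, lay within the spread of the groups with it. Atg9b lies on the minus strand at 24384181 to 24392143 of chromosome 5 (GRCm38), overlaps Nos3 on the other strand, and had fractional counts in 18 of 30 libraries, so its reads may be shared with that gene.

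In NSFr against control 1 of 36 members was higher and 4 lower, where 4.56% of all genes tested were higher and 3.51% lower. Atg5 had 34.8, 35.5 and 37.6 CPM in NSFr, against 44.1, 42.2 and 41.5 CPM in control (-0.25 ± 0.047, adjusted p = 0.00106), without overlap and in every alternative fit. Ctsl (-0.16 ± 0.047, adjusted p = 0.0305), Atp6v1h (-0.15 ± 0.047, adjusted p = 0.0496) and Wipi2 (-0.11 ± 0.036, adjusted p = 0.0452) were the other lower members, and lost their calls in 6, 9 and 8 of 11 alternative fits, up to adjusted p = 0.134, 0.357 and 0.220, each of them without control replicate 1 or 2 or NSFr replicate 1. Atg9b (0.58 ± 0.17, adjusted p = 0.0412) was higher with overlapping groups, and lost the call in 6 of 11, up to adjusted p = 0.177 without control replicate 1, and also without control replicate 2 or NSFr replicate 2 or 3. In NSFr_Dgal against Dgal, 0 members were higher and 2 lower, where 3.50% of all genes tested were higher and 2.82% lower, with 6 at an unadjusted p under 0.05. The lower ones were Atg5 (-0.15 ± 0.048, adjusted p = 0.0466) and Ctsd, with 1675, 1641 and 1611 CPM in NSFr_Dgal and 1795, 1747 and 1739 CPM in Dgal (-0.10 ± 0.031, adjusted p = 0.0456), and each call was lost in 8 of 11 alternative fits, up to adjusted p = 0.150 and 0.203, those without any single library of either group included. DESeq2 also called 0 higher. Of 10 fibre markers 2 fell in NSFr against control, with 24520 to 24890 CPM in NSFr and 25230 to 27110 CPM in control. In NSFr_Dgal against Dgal 1 fibre marker rose and 2 fell, and 1 of 5 myoblast markers fell. There, 3 of 5 dividing-cell markers rose, with sums of 98.7 to 115 CPM in NSFr_Dgal and 72.0 to 79.7 CPM in Dgal. The part of these shifts was not tested.

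The whole water extract and Rb2 gave no member that passed the threshold in edgeR. In RGW against control 0 of 36 were called, where 3.21% of all genes tested were, with 3 members at an unadjusted p under 0.05 and 0 calls by DESeq2. In RGW_Dgal against Dgal 0 were called, where 5.06% of all genes were, with 10 members at an unadjusted p under 0.05 and 0 calls by DESeq2. In Rb2 against control 0 were called, where 1.53% of all genes were, with 6 members at an unadjusted p under 0.05 and 1 lower by DESeq2. In Rb2_Dgal against Dgal 0 were called, where 2.26% of all genes were, with 4 members at an unadjusted p under 0.05 and 0 by DESeq2. How many of all genes lay under the unadjusted threshold was not counted. Of 5 dividing-cell markers 3 fell in RGW against control, with sums of 108 to 142 CPM in RGW and 162 to 170.4 CPM in control. In Rb2_Dgal against Dgal 2 of 5 rose, with 103 to 112 CPM in Rb2_Dgal and 72.0 to 79.7 CPM in Dgal. In RGW_Dgal against Dgal and Rb2 against control 0 dividing-cell markers were called. Of other markers, in Rb2 against control 1 fibre marker fell, and 1 myoblast and 1 bone marker rose. In Rb2_Dgal against Dgal 1 fibre, 1 myoblast and 1 bone marker rose. In RGW_Dgal against Dgal 1 fibre marker rose and 1 myoblast marker fell. The part of these shifts was not tested.

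The intervals bound what could have been missed. For Sqstm1 the 95% interval of the log2 fold change was -0.03 to 0.12 for RGW and -0.04 to 0.11 for Rb2 against control, and -0.04 to 0.10 for RGW_Dgal and for Rb2_Dgal against Dgal. For Ctsd it was -0.07 to 0.05 for RGW and -0.04 to 0.08 for Rb2. Leaving aside Atg9b, no interval in RGW against control went beyond -0.24 or 0.24, and none in Rb2 against control beyond -0.29 or 0.36; that of Atg9b reached 0.64 for RGW and -0.60 for Rb2. With the sugar, the intervals of all 36 lay between -0.37 and 0.41 in RGW_Dgal against Dgal and between -0.56 and 0.40 in Rb2_Dgal against Dgal, with Atg9b at the lower end and Map1lc3a at the upper end of both. Gabarapl1 came nearest to a call with the sugar, at 77.9, 79.2 and 83.9 CPM in Rb2_Dgal and 75.7, 70.9 and 71.5 CPM in Dgal (0.14 ± 0.042, adjusted p = 0.0585). In Rb2 against control Wipi1 came nearest to a call, with all Rb2 libraries below all controls (-0.12 ± 0.033, adjusted p = 0.0659). Tfeb there was -0.17 ± 0.057 (adjusted p = 0.141). The Rb2 dose is in µM and that of the fractions in µg/mL, so no test was made between them.

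Whether a preparation altered the response to the sugar was asked with an interaction term, the change with D-galactose after a preparation minus the change without it. In all 4, 0 members were called in edgeR, where 0% of all genes were for RGW and Rb2, 0.583% for SFr and 0.0410% for NSFr. At an unadjusted p under 0.05 there were 2 members for RGW, 4 for SFr, 2 for NSFr and 2 for Rb2, and DESeq2 called 1 higher for SFr and 0 in the others. Map1lc3a had the smallest p, with an interaction of 0.45 ± 0.13 for SFr (adjusted p = 0.129). Its values in SFr were 245, 222 and 244 CPM and those in control 230.1, 209 and 172 CPM, so the control libraries overlapped those of SFr. The Sqstm1 interaction for SFr was 0.07 ± 0.050 with a 95% interval of -0.03 to 0.17, and that of Atg9b was -0.51 ± 0.22 (adjusted p = 0.330).

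Other genes of the pathway, 130 tested of 136 listed, moved less uniformly. In SFr against control 45 rose and 15 fell, in SFr_Dgal against Dgal 46 rose and 15 fell, and in Dgal against control 9 rose and 26 fell. Beside these stand the shares of all genes tested: 21.3% higher and 21.8% lower, 20.3% and 21.0%, and 11.9% and 13.1%. Of 17 further proton pump genes 6 rose and 1 fell in SFr against control, and 11 rose and 1 fell in SFr_Dgal against Dgal. Among called and separated pathway genes with a mean of at least 5 CPM, Rragd, a Rag GTPase that recruits mTORC1 to the lysosome, rose most in both SFr comparisons, with 16.3 ± 0.417 CPM in SFr and 9.48 ± 0.437 CPM in control (0.78 ± 0.064, adjusted p = 2.58e-12), and with 19.1 ± 0.535 CPM in SFr_Dgal and 11.1 ± 0.460 CPM in Dgal (0.79 ± 0.062, adjusted p = 1.10e-12). Atg16l2, a relative of Atg16l1 (0.61 ± 0.11), and the folliculin partner Fnip2 (0.53 ± 0.079) also rose in SFr. Wdfy3, an adaptor for aggregated protein (-0.55 ± 0.14), the kinase Mtor (-0.39 ± 0.055) and the protease Atg4a (-0.38 ± 0.052) fell in SFr. In SFr_Dgal against Dgal, the Ragulator subunit Lamtor4 (0.45 ± 0.094) and the pump subunit Atp6v1g1 (0.45 ± 0.058) rose, and Atg4a (-0.34 ± 0.052), the tethering subunit Vps33a (-0.27 ± 0.042) and Mtor (-0.26 ± 0.055) fell. In Dgal against control, Idua (0.52 ± 0.11), which cleaves iduronic acid from glycosaminoglycans, the pump subunit Atp6v0e2 (0.49 ± 0.065) and Rragd (0.22 ± 0.069) rose. The AMPK catalytic subunit gene Prkaa2 (-0.44 ± 0.068), the mannosidase Manba (-0.28 ± 0.070) and Atg101 of the ULK complex (-0.24 ± 0.063) fell in Dgal.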

How the data were processed

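Poly(A) RNA from 30 libraries was sequenced as paired ends from directional MGIEasy libraries, per the labels. Per the submitters' processing notes, the tools were STAR 2.7.9a, RSEM 1.3.3, Trim Galore 0.6.10 and FastQC 0.11.9, and the builds GRCm38 and mm10. Not given in the sources used here were the gene annotation and whether counting used strand. The deposited values are expected counts per gene that the authors estimated with RSEM, not normalized; 19.4% were not whole, and reads shared between copies or overlapping genes may be divided. Of the 36 members, 15 had fractional values (tolerance 0.005 counts) and 16 overlap a gene on the other strand in GENCODE vM21. Map1lc3b, Gabarapl1, Atg9a, Lamp1, Ctsa, Ctsb and Hexa overlap such a gene and had fractional values in all 30 libraries. Sqstm1, Becn1, Ctsl and Atg9b also overlap such a gene and had fractional values in 29, 29, 25 and 18 libraries.

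Counts were rounded. The test was edgeR 4.0.16 in R 4.3.3 (quasi-likelihood, robust, TMM, filterByExpr) in one group model of 30 libraries, with adjustment over 12184 genes; dispersion was 0.00181. CPM use kept-gene totals times TMM factors. Standard errors are the absolute log2 fold change over the square root of F. Alternatives were RLE scaling, no filter, DESeq2 1.42.0, a replicate block, leaving out each library, and a fit of only those groups that are compared. Groups and replicates follow the labels. No column was left out.

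The members, gene lists and tests were chosen with earlier results of these data known. Named were all 36 members in groups, up to 12 called and separated members per comparison by size, 5 members always (Sqstm1, Map1lc3b, Tfeb, Lamp1, Ctsd), and up to 3 higher and 3 lower other pathway genes with at least 5 CPM in 3 comparisons; further members were added to account for the rest.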

Additional observations from a re-analysis of the deposited data

How the results depend on the processing

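Counts of higher members in the SFr comparisons were close to each other in every alternative fit: 21 to 23 for SFr against control, 18 to 21 for SFr_Dgal against Dgal, 26 for SFr against NSFr and 20 to 24 for SFr_Dgal against NSFr_Dgal. With 1 library left out, they were 19 to 22, 17 to 21, 23 to 26 and 20 to 22. Over all 111 calls of members, 140 of 1221 values under the alternatives lost the threshold and no call reversed; for the 65 calls named by size and separation or always described, 59 of 715 lost it. Small counts moved more. Dgal against control had 2 lower members with only the groups compared and 2 to 7 with 1 library left out (1 to 3 higher), and 16 lower other pathway genes in place of 26. NSFr against control had 0 higher and 2 lower with no filter, 2 lower with RLE, 2 with DESeq2, 1 with only the groups compared, and 0 to 1 higher and 1 to 4 lower with 1 library left out. NSFr_Dgal against Dgal had 0 lower with no filter, 1 with DESeq2, 1 with only the groups compared and 0 in each fit with 1 library left out. SFr against NSFr had 0 lower with no filter, 2 with only the groups compared and 0 to 1 with 1 library left out, and SFr_Dgal against Dgal had 0 to 1 lower. With only the groups compared, 1 member was higher in RGW_Dgal and 1 in Rb2_Dgal against Dgal, and 0 to 1 in each with 1 library left out. DESeq2 called 1 lower in Rb2 against control and 1 higher in the interaction for SFr, where leaving out 1 library gave 0 to 1; the cause of these moves was not tested. RLE scaling shifted log2 fold changes by at most 0.00621. Same-numbered libraries showed little common deviation (135 pairs, correlation -0.193 to 0.157, median 0.00386, 8 over 0.1). That is no sign of a strong shift shared by number, but it cannot tell whether such libraries were handled together. With the replicate block the counts of higher members were 22 for SFr against control and 20 for SFr_Dgal against Dgal. Counts of lower members with it were 8 for Dgal and 3 for NSFr against control. Atg9b had standard errors of 0.15 to 0.18 in the comparisons of 2 groups, against 0.035 for Sqstm1, so small changes in it were not detectable with this spread between libraries.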
